A study of Homo sapiens with 2 samples.

Results

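The genes NEAT1, MALAT1, KCNQ1OT1, TUG1, NORAD, PVT1, MIR22HG and MIR17HG encode well-known long noncoding RNAs of the nucleus and cytoplasm. They were taken by gene name from the deposited gene table, where each name had 1 row, and they are 8 of 60623 named genes. RNA-seq had been made from HCT116, an established human colon cancer cell line that the labels give as wild type, after lipid transfection with Lipofectamine 2000. The siControl culture received a non-specific siRNA and the siKAT7 culture an siRNA against KAT7, a histone acetyltransferase that the table's column calls by its other name, HBO1. Both cultures were grown in McCoy's 5A medium with serum. The series asks what KAT7 does in gene transcription. It has 1 library per group, so no difference below has a replicate check, no p-value is given for it, and the spread between cultures is unknown.

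The named genes held 23450326 counts in siControl against 23533134 in siKAT7. KAT7 had 442.94 counts in siControl and 287.22 in siKAT7, which is 69.6% of the siControl level (59.7 to 80.8%) after scaling. The epithelial keratin KRT8 had 139208 and 133140 counts, and 5 of 7 colon epithelium markers were measured at 1 CPM (counts scaled to a common library total) or more, whereas CDX1 was at 0 in both libraries. Blood markers summed to 0.493 and 0.926 CPM and endothelial markers to 0.822 and 0.970 CPM, with PTPRC, PECAM1 and CDH5 at 0. The fibroblast collagen COL1A1 had 760 and 706 counts, while COL1A2 had 0 and 1.

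Long noncoding RNAs are transcripts with little or no coding capacity that act as RNA, or through the act of being transcribed. NEAT1 is the scaffold of paraspeckles, nuclear bodies that hold RNA-binding proteins, and MALAT1 is concentrated in nuclear speckles, which are rich in splicing factors. The long NEAT1 isoform and MALAT1 have no usual poly(A) tail: RNase P cuts each RNA upstream of a tRNA-like structure, and the new 3′ end folds into a triple helix of U-rich and A-rich stretches. KCNQ1OT1 is an antisense RNA made from the paternal chromosome inside KCNQ1, where it silences neighbouring imprinted genes in cis. TUG1 is found in nucleus and cytoplasm, and NORAD is a mostly cytoplasmic RNA that binds Pumilio family repressors of mRNA. PVT1 lies next to the MYC oncogene, and MIR22HG and MIR17HG are the primary transcripts of miR-22 and of the miR-17-92 cluster.

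The 3′ ends of MALAT1 and NEAT1 are shown because they set these RNAs apart from ordinary polyadenylated transcripts. Each line gives 110 bases of the plus strand of chromosome 11 from GENCODE 29 transcripts on GRCh38, chr11:65506007-65506116 for MALAT1 and chr11:65445431-65445540 for NEAT1. Capitals mark 2 U-rich motifs, written TTTCTTTT and TTTTGCTTT in DNA letters, and the A-rich tract AAAGCAAAA at the end.
MALAT1 3′ end: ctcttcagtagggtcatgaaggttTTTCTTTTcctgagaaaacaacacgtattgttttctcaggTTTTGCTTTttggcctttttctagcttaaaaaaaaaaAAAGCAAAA
NEAT1 3′ end: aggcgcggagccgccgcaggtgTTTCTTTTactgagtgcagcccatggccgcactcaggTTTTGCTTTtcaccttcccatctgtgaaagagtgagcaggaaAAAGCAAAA
The MALAT1 stretch ends at base 8355 of its longest transcript, just before a 57-base annotated gene, AP000769.3 (chr11:65506117-65506173), at the place of the tRNA-like piece. AP000769.3 had 0 counts in both libraries. In the last 110 bases of the longest transcripts of 13123 measured genes, searched on the transcript strand, TTTCTTTT was present in 2.06%, TTTTGCTTT in 0.472% and AAAGCAAAA in 0.396%. All 3 occurred together in 1 of them, which was NEAT1 itself, since the longest MALAT1 transcript runs past the stretch shown.

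NORAD is shown by its Pumilio elements, the letters TGTANATA, which Pumilio family proteins are known to bind in RNA as UGUANAUA. The transcript strand held 15 of them in 5339 bases, or 2.81 per kb, the first at transcript base 761 and the last at base 4599. The fifth base was T in 10, A in 4 and C in 1. The lines below are 28-base windows from the minus strand of chromosome 20 in GRCh38, with the element in capitals and named by its first transcript base.
NORAD element at 761 (chr20:36050183-36050210): ggaaggcctgTGTATATAatatgaaaaa
NORAD element at 1140 (chr20:36049804-36049831): ctcactactgTGTATATAgttgacaatg
NORAD element at 1241 (chr20:36049703-36049730): aatcacatttTGTAAATAcctttttgtt
NORAD element at 1825 (chr20:36049119-36049146): aataccacttTGTAAATAtctttttgct
NORAD element at 2039 (chr20:36048905-36048932): tgttttgctcTGTATATAgtatatataa
NORAD element at 2466 (chr20:36048478-36048505): aataacacttTGTAAATAgcttttaaaa
Of 13136 measured genes with a GENCODE 29 transcript, 31.1% had at least 1 such element in the longest one, and 3 genes had 15 or more. Among the 2946 whose transcript was within 20% of the length of NORAD, 41.8% had at least 1, the median was 0, and NORAD was the 1 gene with 15 or more. KCNQ1OT1 held 9 elements in its far longer transcript (0.0982 per kb), NEAT1 6, TUG1 2 and MIR17HG 2, and MALAT1, PVT1 and MIR22HG held 0. These are letter matches and not measured sites.

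The microRNAs cut from the host transcripts are grouped by their seed, bases 2 to 8 in capitals, which pairs with target mRNAs. Sequences are from RefSeq on GRCh38.p14, on the plus strand of chromosome 13 for MIR17HG and on the minus strand of chromosome 17 for MIR22HG.
miR-17-5p: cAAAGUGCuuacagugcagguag
miR-20a-5p: uAAAGUGCuuauagugcagguag
miR-18a-5p: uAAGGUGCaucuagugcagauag
miR-19a-3p: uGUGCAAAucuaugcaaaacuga
miR-19b-3p: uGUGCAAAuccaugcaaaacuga
miR-92a-3p: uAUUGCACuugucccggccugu
miR-22-3p: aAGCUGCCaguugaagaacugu
The 6 hairpins in MIR17HG gave 4 seeds among the sequences shown, with miR-17-5p and miR-20a-5p sharing one seed and miR-19a-3p and miR-19b-3p sharing another. All 7 hairpin genes had 0 counts in both libraries, and these libraries of long RNA do not measure mature microRNAs.

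The genes differ widely in build. KCNQ1OT1 (ENSG00000269821, chr11:2608328-2699994, minus strand) is a single exon with a deposited length of 91667 bases, and it lies antisense within KCNQ1. NEAT1 (ENSG00000245532, chr11:65422774-65445540, plus strand) and MALAT1 (ENSG00000251562, chr11:65497688-65506516, plus strand) lie near each other on the same chromosome, have a single exon in their longest transcript and have deposited lengths of 22743 and 8708 bases. NORAD (ENSG00000260032, chr20:36045622-36050960, minus strand) is also a single exon, with a deposited length of 5401 bases. TUG1 (ENSG00000253352, chr22:30969245-30979395, plus strand) starts at a bidirectional promoter, has 3 exons in its longest transcript and a deposited length of 7469 bases. PVT1 (ENSG00000249859, chr8:127794533-128101253, plus strand) is annotated with 25 transcripts, 8 exons in the longest and a deposited length of 2450 bases. MIR22HG (ENSG00000186594, chr17:1711493-1717174, minus strand) and MIR17HG (ENSG00000215417, chr13:91347820-91354579, plus strand) have 2 exons in their longest transcript and deposited lengths of 2626 and 2845 bases. Positions are those of GENCODE 29 on GRCh38.

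Measured per deposited length, most of these RNAs were not abundant in the 2 libraries, although they are commonly described as such. Of the 8 genes, 7 had a mean of at least 1 CPM, among 13217 genes in all and 789 annotated as long noncoding. The median long noncoding gene stood at 1.39 CPM per kb and the median of all measured genes at 5.10 CPM per kb. PVT1 had 35.4 CPM per kb in siControl and 41.1 in siKAT7, which placed its mean at rank 20 of the 789. NORAD had 9.13 and 8.95 CPM per kb and rank 66. MALAT1 had 1.48 and 1.63 CPM per kb and rank 367, near the middle of the class.

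The other measured members stood below the class median per deposited length. MIR22HG had 0.954 and 0.823 CPM per kb, NEAT1 had 0.824 and 0.750, and TUG1 had 0.792 and 0.756, at ranks 506, 536 and 547. In both libraries the counting intervals of these 3 overlapped, so their order relative to each other is not resolved (in siControl, MIR22HG 0.730 to 1.23, NEAT1 0.750 to 0.903 and TUG1 0.668 to 0.933 CPM per kb). The interval of MALAT1 lay above all 3, at 1.32 to 1.65 CPM per kb in siControl and 1.46 to 1.82 in siKAT7. KCNQ1OT1 had 0.0282 and 0.0236 CPM per kb and rank 787. MIR17HG had 0 counts in both libraries, which allows up to 0.123 CPM in siControl and 0.132 CPM in siKAT7 (3 counts in each, counting error only).

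**Figure D1:**
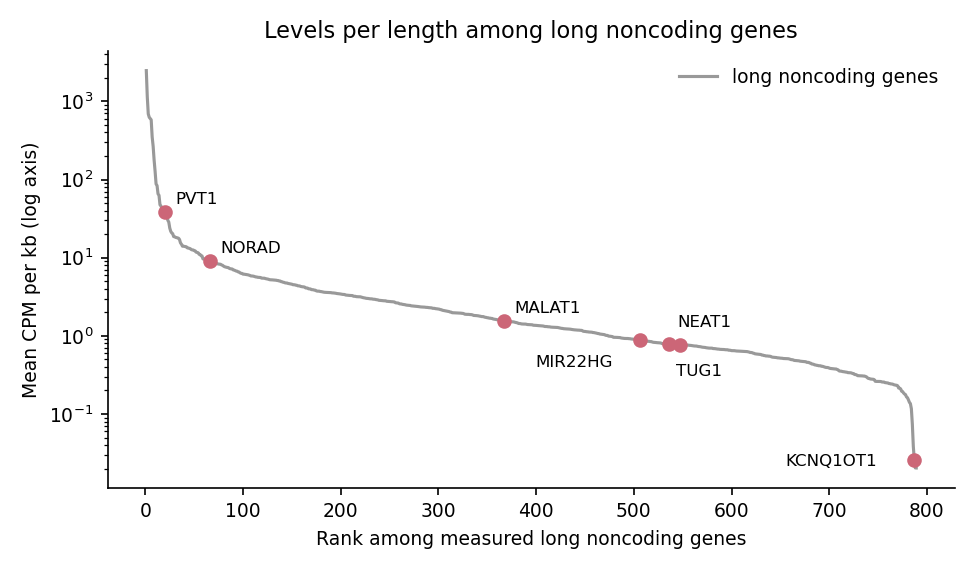
Mean level over both libraries in CPM per kb of deposited length (log axis) against rank for the 789 measured long noncoding genes (line), with 7 named genes as points. PVT1 and NORAD lie near the upper end, MALAT1 near the middle, and KCNQ1OT1 at the lower end.

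The order, and the place of some members against the class median, depended on the division by length. In plain CPM the class median was 2.52, and only KCNQ1OT1 (2.37) and MIR22HG (2.33) had means below it. Without division by length, NEAT1 ranked 58 and MALAT1 79 of the 789, against 23 for NORAD, 16 for PVT1, 200 for TUG1, 414 for KCNQ1OT1 and 420 for MIR22HG. NEAT1 has short and long isoforms, and with its second longest annotated transcript of 3524 bases as the length, its mean would be 5.08 CPM per kb in place of 0.787. The same choice gave 2.53 CPM per kb for MALAT1, 1.69 for MIR22HG and 0.816 for TUG1. All of these but TUG1 lie above the class median of 1.39 CPM per kb, which was taken with deposited lengths. PVT1 had a mean of 38.2 CPM per kb with the deposited length and 55.1 with the longest GENCODE 29 transcript of 1699 bases. Gene-level counts do not tell isoforms apart.

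The sources used here do not say whether poly(A) RNA was selected, which bears on MALAT1 and long NEAT1. Replication-dependent histone mRNAs also mostly lack such a tail. Of 68 such genes, 15 had a mean of at least 1 CPM, 20 were at 0 in both libraries, the median gene was at 0.164 CPM in siControl and 0.132 in siKAT7, and together they summed to 182 and 208 CPM. The part of tail selection in the levels of MALAT1 and NEAT1 was not tested.

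**Figure D2:**
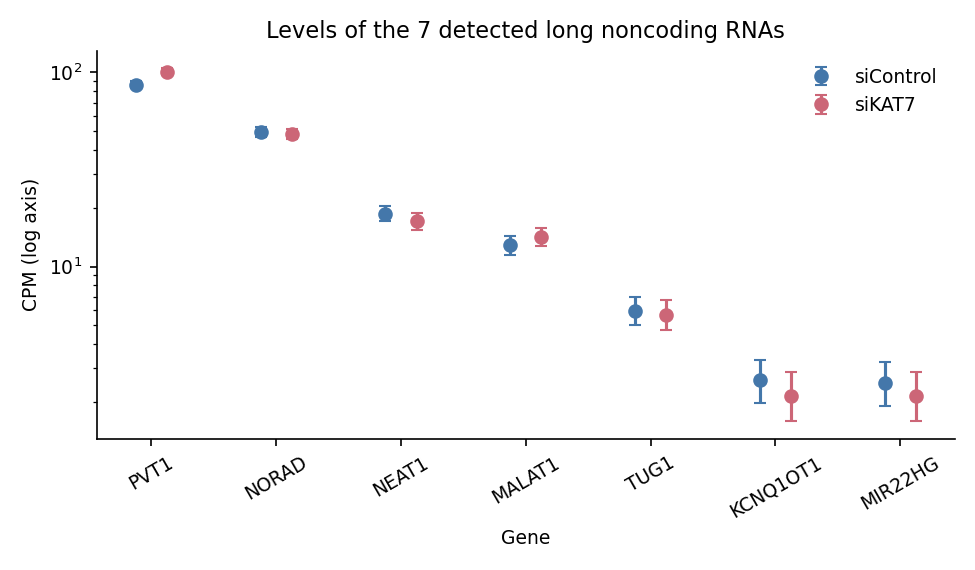
Level of each of the 7 measured genes in CPM (log axis) in the siControl and the siKAT7 library, with exact Poisson 95% intervals that cover counting error only. PVT1 is the only one whose intervals in the 2 libraries do not overlap.

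None of the 7 measured RNAs differed by 1.5-fold between the libraries. The rule for a difference was a change of at least 1.5-fold with a 95% counting interval that excluded 0. It took 3.92% of all 13217 measured genes as higher in siKAT7 and 3.91% as lower, against 0 of 7 members either way. Among the 789 long noncoding genes the shares were 13.1% and 7.60%, and among protein-coding genes 2.78% and 3.53%. These classes were not matched in level: the median was 2.52 CPM for long noncoding genes and 15.5 CPM for all measured genes. Of the 7 log2 ratios, siKAT7 over siControl, 2 were above 0 and 5 below. Their median was -0.07, beside -0.0048 for all measured genes. For 5 of the 7 the whole interval lay within 1.5-fold in either direction, so that a larger change is outside counting error for them. The intervals of KCNQ1OT1 and MIR22HG were too wide for that.

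Among the nuclear RNAs, NEAT1 had 456.31 counts in siControl and 387 in siKAT7, or 18.7 CPM (17.1 to 20.5) and 17.1 CPM (15.4 to 18.9). The 2 levels overlapped, with a log2 ratio of -0.13 (-0.33 to 0.06). Its neighbour MALAT1 had 313 and 322 counts, or 12.9 CPM (11.5 to 14.4) and 14.2 CPM (12.7 to 15.8), and a log2 ratio of 0.14 (-0.09 to 0.37). The point values lay on opposite sides of 0, but the difference between the 2 log2 ratios, MALAT1 minus NEAT1, was 0.28 (-0.03 to 0.58), an interval that holds 0. KCNQ1OT1 had 63.39 and 49.31 counts, or 2.59 CPM (1.99 to 3.31) and 2.16 CPM (1.60 to 2.86), with a log2 ratio of -0.26 (-0.83 to 0.30). At that depth the interval of KCNQ1OT1 holds both no change and a level more than 1.5-fold lower.

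KCNQ1OT1 shares its position with KCNQ1, a potassium channel gene on the other strand. The sources used here do not give the strand setting of the counting, so reads of the 2 genes cannot be told apart with certainty. KCNQ1 had 500 and 473 counts and a log2 ratio of 0.02 (-0.16 to 0.21), and the sum of both genes gave -0.0071 (-0.18 to 0.17). MIR22HG likewise overlaps WDR81, with 248.51 and 206 counts, and their sum gave -0.18 (-0.42 to 0.06). For NEAT1, TUG1 and PVT1 the overlapping genes added at most a few counts, and the summed log2 ratios were -0.14, -0.07 and 0.21.

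Of the RNAs found in the cytoplasm, NORAD had 1199.97 and 1095.99 counts, or 49.3 CPM (46.6 to 52.2) and 48.3 CPM (45.5 to 51.3). Its log2 ratio of -0.03 (-0.15 to 0.09) was the one nearest 0 among the 7. TUG1, which was named for its induction by taurine in the retina, had 143.56 and 128 counts, or 5.92 CPM (4.99 to 6.97) and 5.64 CPM (4.71 to 6.71). The log2 ratio of TUG1 was -0.07 (-0.42 to 0.29), so its libraries overlapped too.

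PVT1 was the one member whose interval excluded 0. It had 2110 counts in siControl and 2282 in siKAT7, or 86.7 CPM (83.0 to 90.5) and 101 CPM (96.5 to 105). The siKAT7 level was 1.16 times that of siControl (1.09 to 1.23), a log2 ratio of 0.22 (0.13 to 0.30). This is below the 1.5-fold rule, and of all measured genes 55.0% had an interval that included 0. MYC, next to PVT1, had 7581.97 and 6837 counts and a log2 ratio of -0.05 (-0.09 to 0.00013). PVT1 has the most counts of the members and so the narrowest interval.

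The 2 microRNA hosts gave little. MIR22HG had 61 and 49 counts, or 2.51 CPM (1.92 to 3.22) and 2.16 CPM (1.60 to 2.86), and a log2 ratio of -0.21 (-0.79 to 0.35). Its libraries overlapped, and MIR17HG, at 0 in both, gave no ratio. As background, Drosha cuts microRNA hairpins out of such transcripts while they are being made.

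A ratio of 2 members within each library needs no scaling, and 21 such pairs were formed from the 7 genes. The interval excluded 0 in 2 of them. PVT1 minus NEAT1 was 0.35 (0.13 to 0.57) on the log2 scale and PVT1 minus NORAD was 0.24 (0.10 to 0.39). In the other 19 pairs it included 0. These intervals were not adjusted for the number of pairs.

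Scaling moved the members as a group. With library totals in place of TMM factors the median of all measured genes was -0.11, and the members gave -0.24 (-0.44 to -0.04) for NEAT1, -0.14 (-0.26 to -0.02) for NORAD and 0.11 (0.02 to 0.19) for PVT1. Thus 3 intervals excluded 0 under that scaling and 1 under TMM or DESeq2 size factors, with 2 members above 0 and 5 below under each. The authors' deposited table lists a log2 fold of -0.24 for NEAT1 (p = 0.015, adjusted p = 0.056), -0.14 for NORAD (p = 0.024, adjusted p = 0.083) and 0.11 for PVT1 (p = 0.013, adjusted p = 0.051). For the other members the authors' deposited table lists 0.04 for MALAT1, -0.17 for TUG1, -0.37 for KCNQ1OT1 and -0.32 for MIR22HG. It marks none of the 7 as significant and has no test for MIR17HG. KAT7 itself is also unmarked there, at a log2 fold of -0.63, so an absent mark does not show that a gene was unchanged. Its p-values compare 2 libraries and not the conditions.

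**Figure D3:**
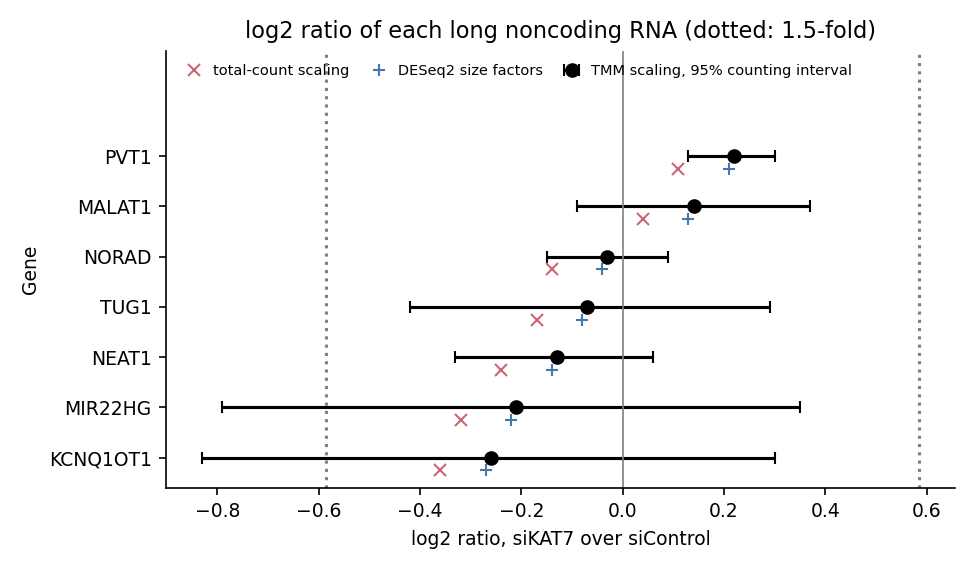
Log2 ratio of siKAT7 over siControl for the 7 measured genes, with TMM scaling and the exact 95% counting interval (black), total-count scaling (crosses), DESeq2 size factors (plus signs) and the 1.5-fold limits (dotted). PVT1 at 0.22 (0.13 to 0.30) is the only one whose TMM interval leaves out 0, and no point lies past a limit.

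The library pair had a trend with gene length, and the members have long models. Over 10 bins of equal gene number by deposited length, the median log2 ratio went from 0.18 in the shortest bin (64 to 1049 bases) to 0.02 in the third and -0.07 in the longest (6838 to 205012 bases). NEAT1, MALAT1, KCNQ1OT1 and TUG1 fell in the longest bin and NORAD in the one before it, with a median of -0.05. PVT1 and MIR22HG fell in the fifth bin (2399 to 2892 bases), with a median of -0.02. Thus 5 of the 7 were in the 2 longest bins.

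Each member was then set against the median of its own bin. The log2 ratio of TUG1 was at the bin median (a difference of 0.0005, interval -0.35 to 0.35), and NEAT1 was -0.07 from it (-0.27 to 0.13). NORAD was 0.03 above (-0.09 to 0.14), and MALAT1 0.21 above (-0.02 to 0.44), a log2 ratio higher than that of 78.7% of the genes in its bin. KCNQ1OT1 and MIR22HG stood at -0.19, with wide intervals (-0.76 to 0.37 and -0.76 to 0.38). PVT1 was 0.24 above its bin median (0.15 to 0.33), and 82.1% of its bin had a lower log2 ratio. All 7 lay inside the central 95% of genes with a CPM within 2-fold of their own, which was -0.38 to 0.45 for PVT1 and -1.12 to 1.12 for KCNQ1OT1. The side on which NORAD and TUG1 lay depended on the reference: with the genomic span as the length both stood at -0.11, and against long noncoding genes alone NORAD stood at -0.13 and TUG1 at -0.14. MALAT1 and PVT1 stayed above and NEAT1, KCNQ1OT1 and MIR22HG below under every length and reference set tried.

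For the long noncoding genes the bin medians, from shortest to longest, were 0.18, 0.10, 0.20, 0.06, 0.13, -0.08, 0.07, 0.06, 0.07 and 0.14. They came from 180 genes in the shortest bin and 39 in the longest, and whether their course differs from that of all genes was not tested. Over all lengths the class had a median of 0.09 and a central 95% of -1.08 to 1.25, wider than the -0.69 to 0.64 of protein-coding genes. The median level was 2.52 CPM for the class and 15.5 CPM for all measured genes. Genes of any type within 2-fold of the CPM of KCNQ1OT1 had a central 95% of -1.12 to 1.12. The part of low counts in the wider spread was not tested.

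**Figure D4:**
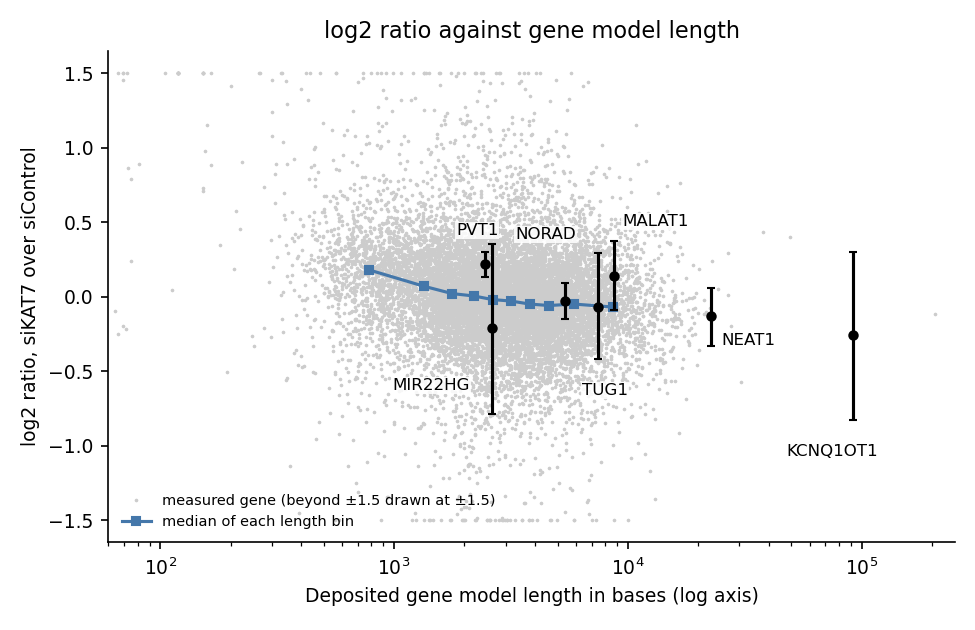
Log2 ratio of siKAT7 over siControl against deposited gene length in bases (log axis) for 13217 measured genes (grey), the median of each of 10 length bins (squares) and 7 named genes with 95% counting intervals (black). The medians go from 0.18 in the shortest bin to -0.07 in the longest, and PVT1 lies above the median of its bin.

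Genes whose proteins work with these RNAs were described as lists, by counts and medians only. Beside them, all 13217 measured genes had a median log2 ratio of -0.0048, with 3.92% higher and 3.91% lower by the rule. Whether any list differs from all genes was not tested. Of 14 paraspeckle protein genes, 12 had a log2 ratio below 0 and 2 above, with a median of -0.18 and 0 past 1.5-fold. PSPC1, a core paraspeckle protein, had 511 and 351 counts and a log2 ratio of -0.44 (-0.64 to -0.24). SFPQ, its essential partner, had -0.22 (-0.31 to -0.13), HNRNPH3 -0.22 (-0.37 to -0.08) and HNRNPK, which steers NEAT1 3′ end choice, -0.21 (-0.27 to -0.16).

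Most nuclear speckle protein genes lay on the same side. Of 14, 11 were below 0 and 3 above, with a median of -0.23. The splicing factor SRSF5 was past the rule, with 1158 counts in siControl, 708 in siKAT7 and a log2 ratio of -0.61 (-0.74 to -0.47), which is 1.52-fold lower. SRSF1 had -0.57 (-0.73 to -0.40) and TRA2A -0.56 (-0.77 to -0.36), whereas PNISR had 0.44 (0.10 to 0.79). With library totals as the scale 3 genes of this list were past the rule. That scale put the median of all measured genes at -0.11, and the share of all genes past the rule under it is not given here.

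NORAD partner genes had a median of -0.03, with 3 of 7 above 0 and 4 below. KHDRBS1 had -0.21 (-0.28 to -0.15) and RBMX, which binds NORAD, -0.17 (-0.28 to -0.07). PUM2, a Pumilio repressor mentioned for its role and not by the naming rule, had 356 and 325 counts and a log2 ratio of -0.03 (-0.25 to 0.19).

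Genes of microRNA processing had a median of -0.06, with 4 of 10 above 0, 6 below and 0 past the rule. DGCR8, the RNA-binding partner of Drosha, had 409.77 and 272 counts and a log2 ratio of -0.49 (-0.72 to -0.27). The helicase DDX17 had 0.30 (0.18 to 0.43), the effector AGO2 -0.17 (-0.26 to -0.08) and the Dicer partner TARBP2 0.16 (0.02 to 0.30). Known targets of the miR-17-92 cluster had a median of -0.03, with 4 of 9 above 0, 5 below and 0 past the rule. THBS1, a secreted inhibitor of vessel growth, had 0.45 (0.25 to 0.65), and the cell cycle factor E2F2 had -0.39 (-0.56 to -0.21). BCL2L11, which promotes apoptosis, had -0.34 (-0.50 to -0.19), and the receptor TGFBR2 had -0.28 (-0.51 to -0.04).

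Other long noncoding RNAs gave a higher median than the members, 0.17 over 12 measured of 20 listed, with 9 above 0, 3 below and 0 past the rule. The median of all 789 measured long noncoding genes was 0.09, and the list was not matched to the members in length. CYTOR had 890.77 and 1160.03 counts and a log2 ratio of 0.48 (0.36 to 0.61), and EPB41L4A-AS1, an antisense gene and so uncertain without strand, had 0.43 (0.30 to 0.56). The imprinted RNA H19 had 158 and 203.3 counts and 0.46 (0.16 to 0.77), and DLEU2, which hosts miR-15a and miR-16-1, had -0.42 (-0.77 to -0.07). With library totals as the scale the median of this list was 0.06.

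Other microRNA host genes had a median of -0.06 over 8 measured of 13 listed, with 4 above 0 and 4 below. MIR222HG, the host of miR-221 and miR-222, was past the rule with 41 counts in siControl and 13 in siKAT7, a log2 ratio of -1.52 (-2.58 to -0.63). It was picked out after its values were seen, as its counts are too few for the naming rule. MIR4435-2HG had 0.21 (0.06 to 0.37), a value that is uncertain because it and CYTOR are near-identical copies whose reads the counting could split. DLEU2 is in this list too.

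Genes beside the members had a median of -0.03, with 6 of 15 above 0, 9 below and 0 past the rule. Listed genes near KCNQ1OT1 all had log2 ratios above 0 except CD81, and the intervals of SLC22A18 and KCNQ1 held 0. The naming rule picks the genes with the largest ratios. The growth inhibitor CDKN1C had 4719 and 6182 counts and a log2 ratio of 0.49 (0.44 to 0.55), PHLDA2 had 16455 and 20810 counts and 0.44 (0.41 to 0.47), and TSSC4 had 0.38 (0.26 to 0.49). The others listed there, given although outside the rule, were SLC22A18 at 0.12 (-0.01 to 0.25), KCNQ1 at 0.02 (-0.16 to 0.21) and CD81 at -0.10 (-0.14 to -0.05). FRMD8, near NEAT1, had 1079.9 and 840.06 counts and -0.26 (-0.39 to -0.13). The KCNQ1OT1 interval itself, -0.83 to 0.30, leaves its own direction unresolved.

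**Figure D5:**
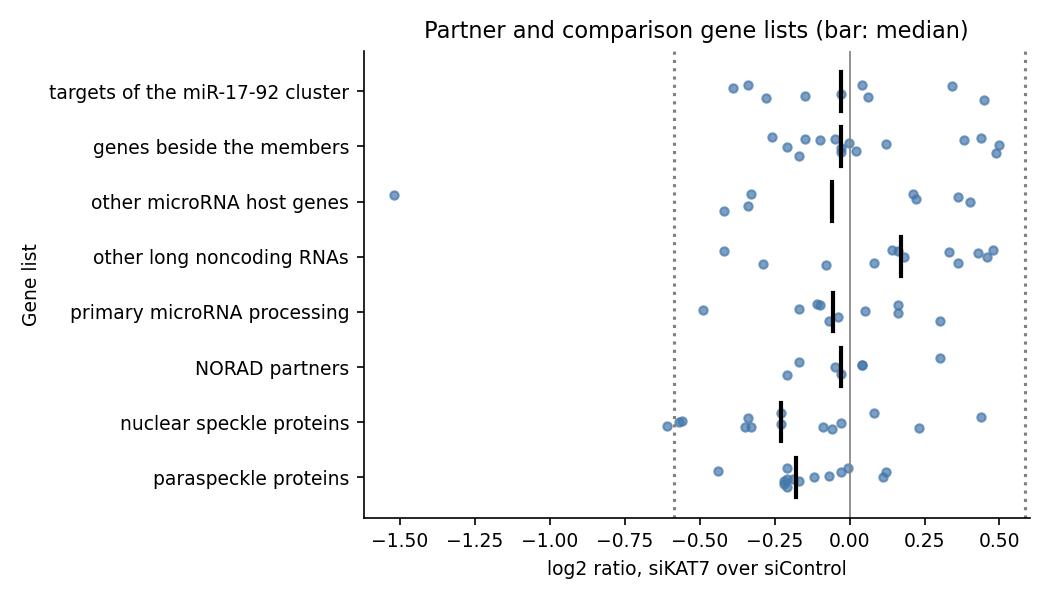
Log2 ratio of siKAT7 over siControl for each measured gene of 8 gene lists, with the median of each list as a bar and the 1.5-fold limits dotted. The medians run from -0.23 for nuclear speckle protein genes to 0.17 for other long noncoding RNAs.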

How the data were processed

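RNA-seq of 1 siControl and 1 siKAT7 library was used. The authors deposited expected counts per gene (estimated, 11.8% not whole). Per the submitters' processing notes, RSEM 1.3.3 and GRCh38.p13 were used. Left unstated are poly(A) selection, strand, aligner and annotation release (not given in the sources used here). The 331 unnamed rows (1.11% of counts in siControl, 1.67% in siKAT7) were left out. Both count columns are repeated with 0 differing cells, so 2 per-sample columns were not used. The authors' deposited table of their comparison gives a fold (ratio), its log2 and p-values, with no tool named per the file headers.

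Counts were rounded and scaled by TMM (edgeR 4.0.16, R 4.3.3; factors 1.04 and 0.964). Log2 ratios used a prior of 0.5. Intervals are exact Clopper-Pearson 95% intervals from the split of counts, or Poisson intervals for levels. They cover counting error only, since each group has 1 library. Reads lacking molecular identifiers need not be separate molecules, so even the counting error may be larger than the intervals show. The error of the estimated counts is not covered either. A gene entered the comparison at a mean of 1 CPM or more. The deposited length, which equals the longest GENCODE 29 transcript for 69.1% of 58457 genes, gave CPM per kb. The script was tested on simulated data.

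The members and gene lists were chosen with earlier results of these data known. The naming rule took all 8 members, KAT7 and, per list, up to 4 genes with the largest log2 ratio among those with at least 100 summed counts, a mean of at least 1 CPM and an interval excluding 0. Alternatives were total-count and DESeq2 1.42.0 scaling, other priors, filters, fold limits, bins and lengths. Values of 1 listed gene are not reported here.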

Additional observations from a re-analysis of the deposited data

How the results depend on the processing

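No member was past 1.5-fold under any alternative run, and no log2 ratio of a member changed sign. The log2 ratio of PVT1 was 0.11 with total-count scaling and 0.11 in the authors' deposited table. Total-count scaling put the median of all measured genes at -0.11. NORAD minus its bin median was -0.11 with the genomic span as length and -0.13 among long noncoding genes alone, and PVT1 minus its bin median was 0.14 with the longest GENCODE 29 transcript, a length chosen after seeing the data. Total-count scaling gave list medians of -0.29 (paraspeckle), -0.34 (nuclear speckle, 3 genes past 1.5-fold), -0.14 (NORAD partners), -0.16 (microRNA processing, 1 gene), 0.06 (other long noncoding RNAs), -0.16 (other microRNA hosts), -0.13 (genes beside the members) and -0.14 (miR-17-92 targets). The share of all measured genes past 1.5-fold under total-count scaling is not given here. Those counts of genes are therefore not read as results about the lists. At a mean of at least 10 CPM the medians were 0.24 for other long noncoding RNAs and -0.09 for miR-17-92 targets. Of the other microRNA hosts, MIR4435-2HG alone reached that limit, with the uncertain 0.21 given above and not past 1.5-fold. That value does not describe the list. Of the alternative log2 ratios, 79 moved by less than the main counting interval and 5 by more. No paired analysis was possible because each group has 1 library. Depth limits KCNQ1OT1 and MIR22HG through their low counts, and MIR17HG at 0.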

Other observations

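Measured genes within 200 kb of each member were read as loci. Around MALAT1 there were 20, with a median log2 ratio of 0.01, and around NEAT1 18, with a median of 0.04. These 2 windows share most of their genes, and each holds the other member, so they are not separate observations. In both windows 1 gene was past 1.5-fold: POLA2, a subunit of the DNA polymerase alpha complex that starts DNA synthesis. Its log2 ratio was -0.72 (-0.96 to -0.49), from 419.31 counts in siControl to 237.34 in siKAT7. AP000944.5, listed in the same windows, moved the other way, from 192.27 to 236.52 counts, at 0.40 (0.13 to 0.69). The estimated counts of both genes are not whole. Whether reads were split between POLA2 and AP000944.5 was not tested, so the POLA2 value is uncertain. Around KCNQ1OT1 the median of 4 genes was 0.07, around TUG1 that of 6 was -0.08, around NORAD that of 5 was -0.01, and around MIR22HG that of 12 was -0.04, with 0 genes past the rule in these 4 windows. PVT1 had MYC alone in its window.

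Some listed noncoding genes under the 1 CPM limit had lower counts in siKAT7, picked out after their values were seen. LINC-PINT, a p53-induced RNA, had 30.93 and 9.91 counts, a log2 ratio of -1.49 (-2.72 to -0.46), and MIR29B2CHG, the host of miR-29b-2 and miR-29c, had 17 and 4 counts, -1.86 (-4.02 to -0.37).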
